A study of Mus musculus with 2 samples.

Results

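Glul, Oat, Slc1a2, Axin2, Lgr5, Tbx3, Rnase4 and Lect2 were followed here as a set of pericentral and Wnt-zonated liver genes. Every probe set whose platform annotation gave 1 of these symbols was taken, which yielded 11 probe sets for 8 genes among 22626 non-control probe sets and 12393 genes with a probe set of a single symbol. The choice used no measured value of these arrays, but it was made with earlier results of them known. The samples were liver RNA of mice lacking apolipoprotein E, all on a high-fat diet, and the study compared types of olive oil for their effect on gene expression in the liver. For 1 Affymetrix array, called the orujo array after its title, the diet carried the unsaponifiable fraction of olive oil, which holds its minor components other than esters of fatty acids. For the other, called the olive array, the diet carried olive oil. The sources used here do not give age, sex, the number of animals or any pooling of RNA. With 1 array per diet there was no replicate, so each ratio compares 2 arrays, and no p-value or error between animals can be given.

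Hepatocytes differ along the axis between the portal tract and the central vein. Endothelial cells of the central vein secrete Wnt ligands and R-spondin 3, which stabilise beta-catenin in nearby hepatocytes and switch on the pericentral programme. Glutamine synthetase is the classical marker of the innermost hepatocyte layer, where it captures the ammonia that the periportal urea cycle has left. In whole-liver RNA, fewer cells of a type and less RNA per cell cannot be told apart, so none of the values below locates a transcript within the lobule.

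The levels are deposited probe set intensities on a linear scale. A floor of 35.6 was set at the 50th percentile of all scaled intensities on both arrays, and a probe set above it on both arrays is called measured. The log2 ratio is the orujo array minus the olive array. Of the 11 member probe sets, 8 were measured, covering 7 genes, 1 lay above the floor on the olive array only, and 2 lay below it on both. As an error, the noise of 1 probe set was estimated from the 2057 genes with at least 2 measured probe sets. The ratios of their brightest pair differed with an SD of 0.43, which puts 1 probe set at 0.30 log2 units. This error is the disagreement between probe sets of a gene on the same 2 arrays. It leaves out array or preparation error that both probe sets share, and variation between animals. It also pools bright and dim genes. In the 281 genes whose probe sets each averaged more than 10 times the floor, the pair ratios differed with a smaller SD of 0.35. By this disagreement alone, the pooled noise is too large for bright members, and no separate noise is given for dim ones. The ratios themselves spread almost as widely among bright probe sets. Their SD was 0.40 above 10 times the floor on both arrays and 0.43 for the other measured probe sets.

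Some measures of the samples differed between these arrays. Genes other than the members were read from lists, each gene from its brightest probe set. Apoe, the gene these mice lack, had 99.6 on the orujo array and 102.7 on the olive array. Whether its probe set lies within the deletion is not known here, and it therefore checks no label. All 9 hepatocyte markers with a probe set were measured, and Fgb, fibrinogen beta, was highest in ratio at 0.41, followed by Ahsg at 0.32 and Apoa1 at 0.21, while Cebpa was lowest at −0.39. Of 17 pancreatic acinar markers, 14 had a probe set, 12 were measured and all 12 were at least 2-fold lower on the orujo array (median −2.60, from −3.71 for Ctrb1 to −1.58 for Cela1). The other 2 were above the floor on the olive array only, and the list's summed scaled intensity was 1078 on the orujo array and 6826 on the olive array. Of 13 endothelial markers, 9 were measured, 8 with positive ratios (median 0.24), from Kdr at −0.30 to Thbd at 0.89, with Plvap at 0.36 and Stab2 at 0.31. Only Krt8 (−0.71) and Krt18 (0.25), which hepatocytes also express, were measured among 10 cholangiocyte markers. The 5′ control probe set for ribosomal RNA of the small subunit was at 2.54, its middle one at 2.48 and its 3′ one at 0.34. The part of these differences in the member values was not tested.

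No measured member differed 2-fold between the diets. Of the 8 measured probe sets, 0 were at least 2-fold higher on the orujo array, against a background of 1.36% of all 10462 measured probe sets, and 0 were at least 2-fold lower, against 1.08%. With a limit of 1.5-fold, 0 members were higher (background 5.9%) and 1 was lower (background 5.59%), which was Slc1a2. The member ratios ran from −0.64 to 0.58. The member median was 0.12, against −0.01 over all measured probe sets, whose SD was 0.43. A lower floor, at the 25th percentile, lets both Tbx3 probe sets in and gave a member median of −0.079. In size, 3 of the member ratios were below the noise of 1 probe set, 4 were between 1 and 2 times that noise, and 1 was above 2 times. That noise is pooled over bright and dim genes, so these multiples do not rank bright members against dim ones.

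**Figure D1:**
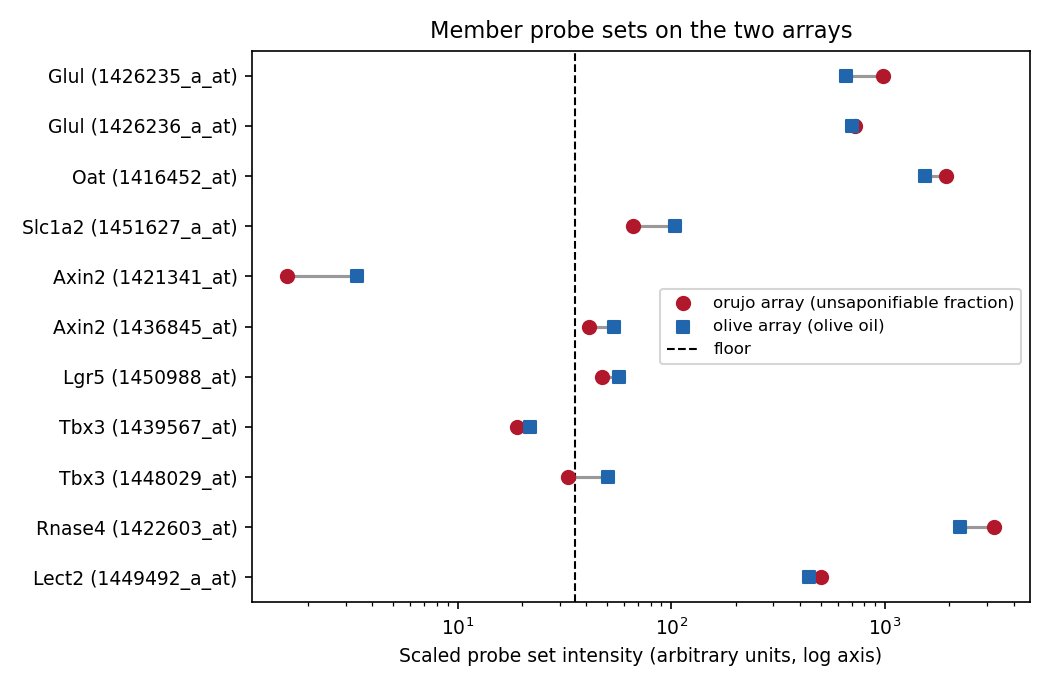
Scaled intensity (log axis) of each of the 11 member probe sets on the orujo array (circles) and the olive array (squares), 1 array each, with the floor of 35.6 as a dashed line. Glul, Oat, Rnase4 and Lect2 lie far to the right of the floor with the circle at the higher value, while the circles of Slc1a2, Axin2, Lgr5 and Tbx3 lie to the left of their squares, close to or below the floor.

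The sequences of 3 upstream regions are shown, those of Lect2 and Slc1a2 because they hold a motif of the Wnt pathway, and that of Rnase4 because Ang shares it. TCF/LEF factors carry the Wnt signal on DNA. Their core motif was searched as CTTTG followed by 2 bases that are each A or T, on both strands. The windows ran from 250 bases before to 50 after a RefSeq transcript start (GRCm38.p6), and not every annotated start had a window. The window table held 7 windows for 6 members (Glul, Oat, Slc1a2, Axin2, Rnase4 and Lect2), of which 3 windows held a match, while 16.9% of all 32851 windows did. Lgr5 and Tbx3 had no window in the table. The only Slc1a2 window lies inside the gene, beginning at 102706188 where the annotated gene range begins at 102658239. That of Axin2 also lies inside, beginning at 108920099 with the gene range from 108917828. For these genes the region before the annotated 5′ end was therefore not searched. The matches lay in Slc1a2, Lect2 and the second Rnase4 window, and the windows of Glul, Oat and Axin2 held none of these letters. A match describes letters in a window and is neither a site nor a cause, and these windows leave out distant enhancers. The 250 bases before the start are printed 5′ to 3′ in lower case with the motif in capitals. The Lect2 match begins 32 bases before its start and the Slc1a2 match 207 bases before its start inside the gene, both as the reverse complement.
Lect2, chr13:56548539-56548788, minus strand: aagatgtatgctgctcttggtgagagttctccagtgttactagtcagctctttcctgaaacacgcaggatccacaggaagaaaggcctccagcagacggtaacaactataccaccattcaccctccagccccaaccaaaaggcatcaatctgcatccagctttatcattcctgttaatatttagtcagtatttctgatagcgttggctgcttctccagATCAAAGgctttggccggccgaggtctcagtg
Slc1a2, chr2:102706188-102706437, plus strand: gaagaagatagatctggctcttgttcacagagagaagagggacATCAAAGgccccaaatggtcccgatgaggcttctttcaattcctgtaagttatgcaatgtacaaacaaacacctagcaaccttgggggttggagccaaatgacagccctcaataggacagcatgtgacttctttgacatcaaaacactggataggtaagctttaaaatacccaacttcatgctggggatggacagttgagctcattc
Rnase4 and Ang, shared window, chr14:51090827-51091076, plus strand: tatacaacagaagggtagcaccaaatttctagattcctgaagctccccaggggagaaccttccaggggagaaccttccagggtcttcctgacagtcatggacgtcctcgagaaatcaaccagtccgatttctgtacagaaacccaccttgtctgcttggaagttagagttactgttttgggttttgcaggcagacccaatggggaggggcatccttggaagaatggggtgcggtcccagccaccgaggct

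The enzymes of the pericentral nitrogen pathway come first. Glul encodes glutamine synthetase, which joins ammonia to glutamate. Its first probe set had an intensity of 978.9 on the orujo array and 656.2 on the olive array, a log2 ratio of 0.58 or 1.49-fold. Its second probe set had 724.7 on the orujo array and 700.6 on the olive array, a log2 ratio of 0.05. The higher array was the same in both, but the sizes disagreed: the first ratio was 1.90 times the noise of a probe set and the second 0.17 times. The disagreement of 0.53 log2 units was exceeded by 20.0% of the 2057 genes with a measured pair, and by 10.3% of the 281 genes whose probe sets each averaged more than 10 times the floor. Averaged over both probe sets, the Glul ratio was 0.32. Among the 594 measured probe sets of similar intensity to the first, 8.2% had a higher ratio, and for the second 44.6% of 677.

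**Figure D2:**
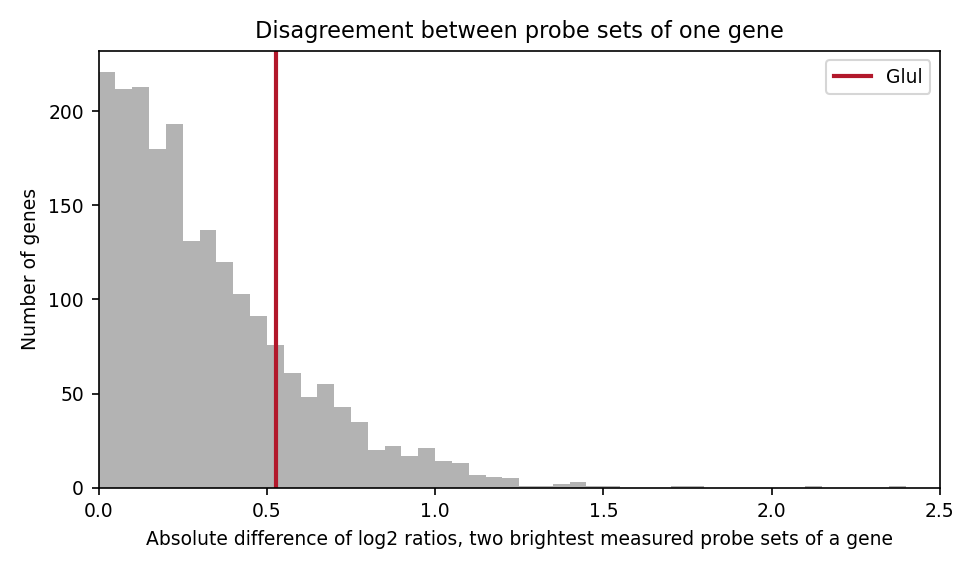
Number of genes (vertical axis) by the absolute difference between the log2 ratios of their brightest pair of measured probe sets (horizontal axis), for 2057 genes. The line marks Glul at 0.53, to the right of most genes.

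Oat encodes ornithine aminotransferase, which links ornithine to glutamate and proline and is found with glutamine synthetase around the central vein. Its single probe set had 1923.7 on the orujo array and 1542.4 on the olive array, a log2 ratio of 0.32, or 1.06 times the noise. Among the 333 measured probe sets within 0.5 log2 units of its mean intensity, 17.7% had a higher ratio. Slc1a2 encodes the glutamate transporter GLT-1, which pericentral hepatocytes use to take up glutamate for glutamine synthesis. Its single probe set had 66.5 on the orujo array and 104.1 on the olive array, which is 1.56-fold lower (log2 ratio −0.64, 2.11 times the noise). This sign was opposite to that of both probe sets of Glul, the enzyme it feeds. The second Glul ratio was only 0.17 times the noise, so the contrast rests on the first. Of the 3340 measured probe sets of similar intensity, 4.85% had a lower ratio than Slc1a2, and its signal was 1.87 times the floor on the orujo array and 2.92 times on the olive array.

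Other genes that handle glutamine, glutamate, ornithine and proline showed no common direction. Of 24 such genes, 18 were measured, 11 with a positive and 7 with a negative ratio, and 1 passed 2-fold in each direction. Their median was 0.11 (−0.03 under quantile normalization), against −0.02 over all 6640 measured genes, of which 90 were at least 2-fold higher and 65 lower. Got1, the cytosolic aspartate aminotransferase, had 4244.9 on the orujo array and 1590.4 on the olive array (log2 ratio 1.42). Gclc, the catalytic subunit that commits glutamate to glutathione, had 444 on the orujo array and 960.9 on the olive array (−1.11, with −1.24 in its other probe set). Gpt2, a mitochondrial alanine aminotransferase, was at 0.92, from a probe set whose suffix marks cross-matching transcripts, and at 0.33 to 0.87 in its other probe sets. Slc25a22, a mitochondrial glutamate carrier, was at 0.54.

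Axin2, Lgr5 and Tbx3 were all near or below the floor. Axin2 encodes a scaffold of the beta-catenin destruction complex that is itself a Wnt target and acts as negative feedback. Its brighter probe set had 41.3 on the orujo array and 53.9 on the olive array, a log2 ratio of −0.38. Its other probe set had 1.6 on the orujo array and 3.4 on the olive array, both below the floor, and so has no ratio. Lgr5 encodes an R-spondin receptor and is a Wnt target of the innermost pericentral hepatocytes. Its single probe set had 47.6 on the orujo array and 57.3 on the olive array, a log2 ratio of −0.26, which is smaller than the noise of a probe set. Signals of Axin2 and Lgr5 were 1.16 and 1.34 times the floor on the orujo array, and 1.51 and 1.61 times on the olive array.

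Tbx3 encodes a T-box transcription factor expressed in pericentral hepatocytes. Its brighter probe set had 32.7 on the orujo array, below the floor, and 50.5 on the olive array, above it. With the orujo value raised to the floor, this probe set was 1.42-fold lower. The floor is a percentile and no detection call, so this bounds no fold for the gene. The other Tbx3 probe set had 18.9 on the orujo array and 21.9 on the olive array and lay below the floor on both. Ratios of the size of those of Axin2 and Lgr5 were common this close to the floor, although requiring both arrays to lie above the floor narrows the ratios found there: of the 2835 measured probe sets of similar intensity to Axin2, 28.4% had a ratio of larger size, and for Lgr5 46.1% of 3347.

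Rnase4 and Lect2 encode secreted proteins. Rnase4, a ribonuclease of the pancreatic ribonuclease family made by hepatocytes, had 3245.5 on the orujo array and 2236.5 on the olive array, a log2 ratio of 0.54 or 1.45-fold. This was 1.77 times the noise of a probe set, but 13.45% of the 223 measured probe sets of similar intensity had a higher ratio. Lect2 encodes a hepatokine whose transcription in liver depends on beta-catenin. It had 503.8 on the orujo array and 443.4 on the olive array, a log2 ratio of 0.19, smaller than the noise. Rnase4 thus had the higher signal on the orujo array by a margin comparable to that of the first Glul probe set, while the Lect2 values were close.

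The gene Ang, which encodes angiogenin, overlaps Rnase4 in the RefSeq annotation, and 1 of the 2 Rnase4 windows was identical to that of Ang (printed above). Ang had 1061.3 on the orujo array and 810.6 on the olive array, a log2 ratio of 0.39, in the same direction as Rnase4. The positions of both probe sets on these overlapping genes are not known here, so the signals may not be independent. Rnase1, the pancreatic ribonuclease of the same family, had 73.4 on the orujo array and 305.3 on the olive array (log2 ratio −2.05). It is also among the 12 measured pancreatic acinar markers, all of which were at least 2-fold lower on the orujo array. Axin1, the paralog of Axin2, had a ratio of −0.12 and −0.31 in its other probe set.

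**Figure D3:**
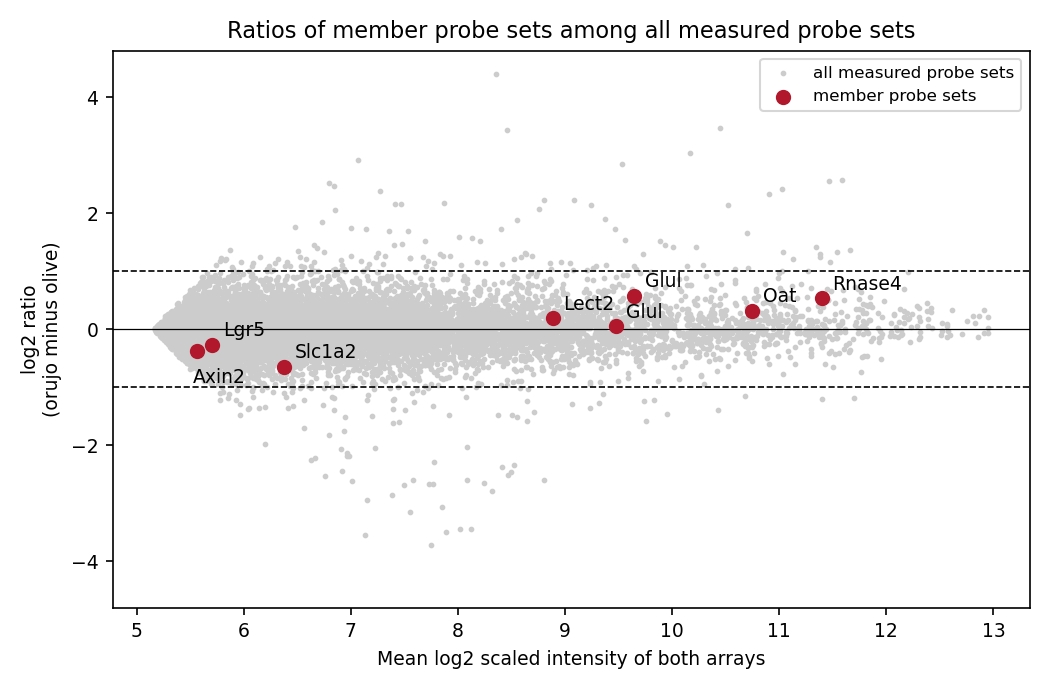
Log2 ratio (orujo minus olive) against mean log2 scaled intensity for 10462 measured probe sets (grey) and the 8 measured member probe sets (red, labelled), with dashed lines at 2-fold. The 5 brighter members lie above 0 and the 3 dimmer ones below it, and none reaches a dashed line.

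The members are grouped by signal here, a grouping made after their values were seen. The 5 measured probe sets above 10 times the floor on both arrays (Glul with both, Oat, Rnase4, Lect2) all had positive ratios, with a median of 0.32. The 3 closer to the floor (Slc1a2, Axin2, Lgr5) all had negative ratios, with a median of −0.38. Shares over all measured probe sets are given for reference, but they are no test of a split made from the values. Of the 1692 above 10 times the floor on both arrays, 50.8% had positive ratios. Of the 8770 closer to the floor, 51.8% had negative ratios. Other bright pericentral genes did not share the sign. With the floor at the 75th percentile, 4 member genes were positive and 0 negative. At that floor the other pericentral genes had 8 positive and 11 negative ratios, and the periportal genes 9 and 4. Glul counts with both of its probe sets here, and 3 of the 8 ratios were smaller than the noise of a probe set.

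Other genes known to be expressed around the central vein did not share a direction. Of 25 listed, 19 were measured, 8 with positive and 11 with negative ratios, and the median was −0.07. Cyp7a1, which catalyses the rate-limiting step of bile acid synthesis, had 886.1 on the orujo array and 211.6 on the olive array (log2 ratio 2.07, and 2.18 in its other probe set). Gstm3, a glutathione transferase, had 163.4 on the orujo array and 826.7 on the olive array (−2.34, from a probe set whose suffix marks cross-matching transcripts, and −2.26 in its other one). These were the only 2 of the 19 past 2-fold. Lhpp, a histidine phosphatase, was at 0.87, and Cldn2, a tight junction protein under Wnt control in liver, was at 0.57 with 0.73 in its other probe set. The cytochrome P450 genes Cyp2e1 and Cyp1a2, commonly used as pericentral markers, were named outside the rule for list genes: Cyp2e1 had 5454.5 on the orujo array and 5244.4 on the olive array (0.06), and Cyp1a2 had 1168.4 on the orujo array and 1648.9 on the olive array (−0.49).

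Periportal genes, at the opposite end of the lobule, had a median of 0.20 over 14 measured of 20 listed, with 10 positive and 4 negative ratios. This stood beside 0.19 over the 7 measured member genes, each read from its brightest probe set, and 0.12 over 9 hepatocyte markers. Under quantile normalization the member genes were at 0.19, the periportal genes at 0.08 and the hepatocyte markers at −0.02. With a lower floor, at the 25th percentile, the member genes were at −0.04 and the periportal genes at 0.20, and with a higher one, at the 75th, 4 member genes were at 0.43 and the periportal genes at 0.18. Slc7a2, a cationic amino acid transporter, had 561.4 on the orujo array and 242.5 on the olive array (1.21), with 0.15 to 1.05 in its other probe sets. Asl, argininosuccinate lyase of the urea cycle, was at 0.54 and Ctsc, cathepsin C, at 0.50. Otc, ornithine transcarbamylase, was lowest at −0.19, with 0.44 in its other probe set. Over all 6640 measured genes, 3155 had positive ratios. The member genes had 4 positive and 3 negative ratios, while the other pericentral genes had 8 positive and 11 negative. The pericentral end thus had no common direction, and no difference between the lists was tested.

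**Figure D4:**
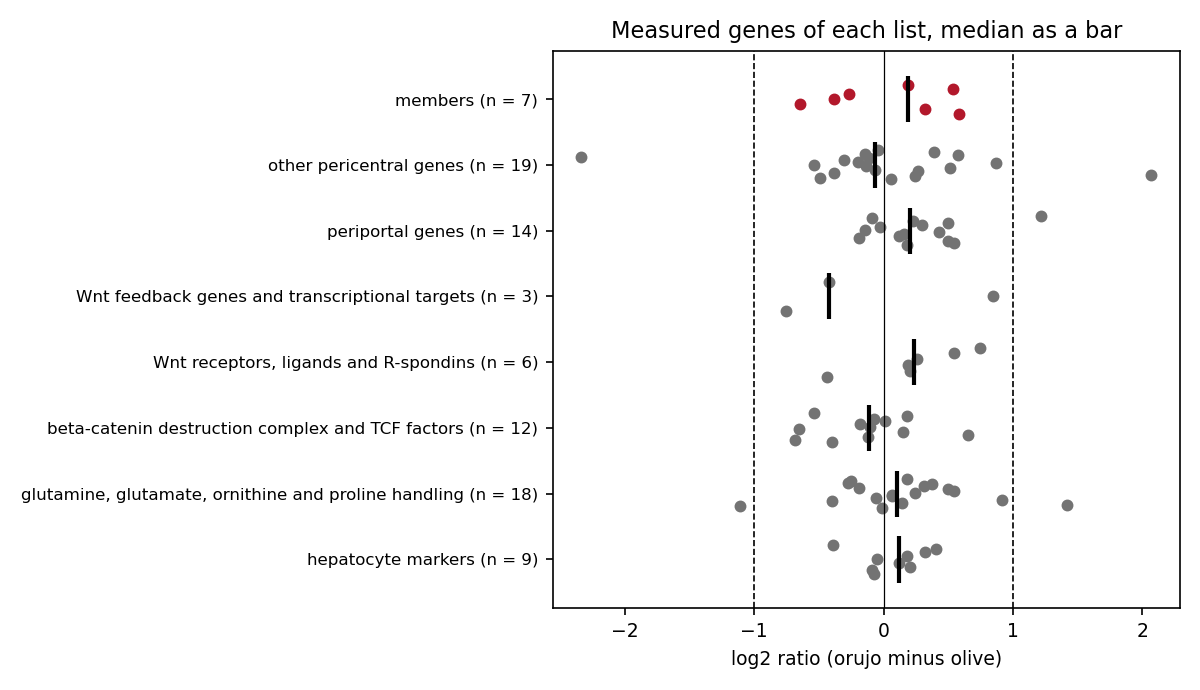
Log2 ratios (orujo minus olive) of the measured genes in each list, 1 point per gene from its brightest probe set, with the list's median as a black bar and dashed lines at 2-fold. The members (red) lie within the 2-fold lines, with medians of 0.19 for the members and 0.20 for periportal genes. Floors at the 25th and 75th percentile put the member median at −0.04 and 0.43.

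Wnt pathway genes outside the members were mostly near or below the floor. Among feedback genes and transcriptional targets, 3 of 14 were measured. Notum, a secreted Wnt inhibitor that is itself a Wnt target, had 128.7 on the orujo array and 217 on the olive array (−0.75). Ccnd1, cyclin D1, was at −0.42 with −0.24 in its other probe set, and Myc, a growth regulator with many inputs besides Wnt, had 70.8 on the orujo array and 39.5 on the olive array (0.84).

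Of 26 Wnt receptors, ligands and R-spondins, 6 were measured, 5 with positive ratios, and the median was 0.23. A lower floor, at the 25th percentile, left 19 measured with a median of 0.00. Wnt2, a ligand made by liver endothelium, had 47.1 on the orujo array and 39.4 on the olive array (0.26). Fzd4, a frizzled receptor, was at −0.44, Wnt11 at 0.54, and the Wnt-binding inhibitor Sfrp1 at 0.74, from a probe set whose suffix marks cross-matching transcripts. Of the destruction complex and TCF factors, 12 of 22 were measured, 4 with positive and 8 with negative ratios, and the median was −0.11. Apc, the scaffold that marks beta-catenin for destruction, was at −0.68, the kinase gene Csnk1d at −0.65 (−0.31 to 0.38 in its other probe sets), the tankyrase gene Tnks2 at −0.54, and Gsk3a, a kinase, at 0.65. None of these measured pathway genes was past 2-fold.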

How the data were processed

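Per the labels, RNA was extracted from liver with a column kit and about 8 µg of total RNA went into each Affymetrix target. The authors deposited probe set intensity values on a linear scale, and their 2% trimmed mean over 22690 probe sets was 100.0 on both arrays. The sources used here name neither the summary software nor detection calls. After 64 control probe sets were removed, each array was scaled to the mean of both trimmed means (factors 1.001 and 0.999), and values were raised to the floor of 35.6 before log2. Symbols came from the platform annotation (20380 probe sets with 1 symbol, 691 with several, 1555 with none), and only probe sets with 1 symbol were named. All 8 member symbols matched RefSeq (GRCm38.p6), which also gave the upstream sequences. The array values and annotation name no build, so probe sets are given no coordinates, and those printed are of the RefSeq windows alone.

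Members and gene lists were chosen with earlier results of these data known. Lists were read from the brightest probe set of each gene, several genes stand on more than 1 list, and from each list the highest, the lowest, the 2 next largest in size and any past 2-fold were named. Ratios were computed in Python 3.11.15 with numpy 2.4.6, scipy 1.17.1, pandas 2.3.3 and statsmodels 0.14.6, and the calculation was tested on simulated data. The number of arrays limits the precision. Alternatives covered scaling, floor, probe set choice and fold limit.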

Additional observations from a re-analysis of the deposited data

How the results depend on the processing

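Each member's log2 ratio kept its sign under no scaling, centring on the median, quantile normalization, loess (span 0.4), log2(value + floor), a floor at the 25th or at the 75th percentile, leaving out probe sets of shared sequence, and the mean or brightest probe set of a gene, wherever the probe set was measured. Most of these alternatives could not turn a sign. Another floor does not alter a ratio that stays measured, and no member probe set was of shared sequence. Omitting the scaling or centring moved all ratios together by a small constant, and adding the floor only shrinks them. Only quantile normalization and loess could have turned a sign, so the other settings are no evidence of stability. Slc1a2, Axin2 and Lgr5 were no longer measured when the 75th percentile was used. Across the alternatives, Rnase4 ranged from 0.41 to 0.55, Oat from 0.25 to 0.33, Slc1a2 from −0.65 to −0.45, Axin2 from −0.38 to −0.22 and Lgr5 from −0.27 to −0.16. The count of members past 2-fold was 0 in both directions under each of these. With the limit at 1.5-fold it was 1 lower and 0 higher. With the floor at the 25th percentile both Tbx3 probe sets gained ratios, −0.21 and −0.62, and the member median turned to −0.079 because these low values joined it. Under the other alternatives the median stayed positive, at most 0.32. No paired analysis was possible because there was 1 array per diet, and for the same reason no array could be left out.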
